A study of Mus musculus with 6 samples.

Results

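The extracellular matrix and integrin genes of mouse liver were chosen by name alone. The rule sought array spots with a single annotated symbol of a collagen, laminin, fibrillin, fibulin, thrombospondin or lysyl oxidase gene. It also sought matrix proteases (Mmp, Adam, Adamts), their inhibitors (Timp), integrin chains, and Fn1, Sparc, Dcn, Lum, Eln and Serpinh1. No such spot was named for a fibrillin, a thrombospondin, Lum, Eln or Lox itself. The rule matched 88 spots for 60 genes, out of 9663 spots with 1 symbol for 7151 genes and 16896 spots in all. Of the 60 genes, 32 encode structural matrix proteins, their collagen chaperone or cross-linking enzymes, and 9 encode integrin chains. The other 19 were grouped by symbol as proteases and inhibitors, with the Adamts-like gene Adamtsl1 among them. Among the structural genes were 11 collagens that form fibres or sit on them, 9 other collagens, 5 laminins and 4 genes of glycoproteins, proteoglycans and the chaperone, and the other 3 were the fibulin Fbln2 and the lysyl oxidase-like genes Loxl2 and Loxl3.

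Total RNA came from the livers of 3 male mice, with 1 mouse per group. By the labels, 1 mouse was 17 days old and fed ad libitum, 1 was 174 days old and fed ad libitum, and the last was on caloric restriction and 177 days old. No genotype or agent was named for any of them. The strain and the degree of restriction were not given in the sources used here. That the ages are in days rests on the labels alone. The restricted and the 17-day mouse differ in both age and diet, which cannot be told apart there. Each liver was hybridised to arrays of kinds A and B, which carry different spots, so that both arrays of a mouse describe 1 animal and are no replicates. With 1 mouse per group there is no error between animals, no p-value is given, and each difference describes these mice only. As the arrays measured whole liver, fewer cells of a type and less RNA per cell cannot be told apart.

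Collagens are built from 3 chains wound into a triple helix, which Serpinh1, a chaperone of the endoplasmic reticulum, escorts through the cell. Fibrillar types I, III and V give tensile strength, whereas type IV collagen and the laminins form the sheets of basement membranes. In liver, hepatic stellate cells are the main source of fibrillar collagen, and hepatocytes secrete plasma fibronectin. Matrix metalloproteinases and the Adam and Adamts families cut matrix or cell surface proteins, and tissue inhibitors of metalloproteinases (Timp) block them. Integrins, pairs of an alpha and a beta chain, tie cells to this matrix.

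The sequences of the spots were not used here, so upstream sequence is shown from RefSeq for 3 genes on which the results turn, chosen after their values were seen. These were the fibrillar collagens Col1a2 and Col3a1, and Adamts17, the gene past the 2-fold bound. Each run holds the 250 bases before the annotated start on the gene's own strand, 5′ to 3′, in build GRCm38.p6. Capitals mark the CCAAT box motif (CCAAT or its reverse complement ATTGG) and the TATA motif (TATAAA or TTTATA). The Col1a2 window lies at chr6:4505368-4505617 on the plus strand, that of Col3a1 at chr1:45311288-45311537 on the plus strand, and that of Adamts17 at chr7:66839485-66839734 on the plus strand.
Col1a2: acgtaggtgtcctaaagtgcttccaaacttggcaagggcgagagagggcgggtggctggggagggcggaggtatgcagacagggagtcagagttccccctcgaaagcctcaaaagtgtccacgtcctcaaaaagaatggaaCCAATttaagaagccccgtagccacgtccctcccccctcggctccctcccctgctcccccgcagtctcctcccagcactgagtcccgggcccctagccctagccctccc
Col3a1: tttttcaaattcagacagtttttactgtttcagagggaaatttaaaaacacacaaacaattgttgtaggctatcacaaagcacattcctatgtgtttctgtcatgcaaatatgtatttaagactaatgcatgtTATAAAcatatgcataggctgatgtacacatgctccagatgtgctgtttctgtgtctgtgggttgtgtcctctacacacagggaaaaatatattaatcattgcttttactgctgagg
Adamts17: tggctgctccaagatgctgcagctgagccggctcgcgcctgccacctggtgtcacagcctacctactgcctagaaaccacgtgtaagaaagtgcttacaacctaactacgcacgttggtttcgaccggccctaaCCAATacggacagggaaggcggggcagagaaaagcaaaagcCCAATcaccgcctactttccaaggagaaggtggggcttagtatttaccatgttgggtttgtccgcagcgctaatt
Col1a2 held 1 CCAAT, starting 109 bases before the annotated start, and Adamts17 held 2, at 116 and 75 bases. Col3a1 held no CCAAT box but 1 TATAAA, starting 117 bases before its start. Of 32851 RefSeq windows of 250 bases, 33.8% held the CCAAT box and 12.4% the TATA motif. Of the 60 genes, 39 had windows in that table, 46 in all, of which 32.6% held the CCAAT box and 6.52% the TATA motif. These matches describe letters and not bound sites.

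The dim arrays of the 174-day mouse bear on every comparison that includes it. Their median spot intensity was 35.8 on array A and 60.8 on array B, against 332.8 to 402.5 on the arrays of the other mice. Intensities were therefore brought to a common distribution by quantile normalization of log2 values, and "level" below means this normalized log2 value. A gene was read only from spots whose mean level over the mice lay in the upper 50% of their array kind. This brightness filter was passed by 43 of the 88 spots and 33 of the 60 genes, and a high value in 1 mouse could let a spot in. Of these genes, 12 were read on array A and 22 on array B, with Sparc on both. How far spots of 1 gene differ serves as the measure of spread, which holds no variation between animals. Over the 557 genes with at least 2 such spots, the pooled SD between spots of a gene was 0.45 log2 for the 174-day minus the 17-day mouse, 0.58 for the restricted minus the 174-day mouse and 0.40 for the restricted minus the 17-day mouse. Over the 6 matrix genes with at least 2 such spots it was smaller, at 0.26, 0.28 and 0.12. The values over all genes are used below.

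Matrix, protease and integrin genes lay within 2-fold between the livers in nearly all cases. Between 174 and 17 days, 0 of 33 genes were higher and 0 were lower by 2-fold or more (a log2 difference of 1 or beyond), against 0.724% and 0.440% of all 3865 genes that passed the filter. In the restricted against the 174-day mouse 1 gene, Adamts17, passed the 2-fold bound upwards (3.03%) and 0 passed it downwards, against 2.25% and 4.61% of all genes. In the restricted against the 17-day mouse 0 genes lay past either bound, against 0.466% higher and 1.11% lower. These shares are near the background. After a correction for the place of a spot on the array, described below, 0 and 0 of 32 genes passed for age (0.698% and 0.207% of all genes), 1 and 1 for the restricted against the 174-day mouse (0.930% and 2.02%), namely Adamts10 and Col22a1, and 0 and 0 for the restricted against the 17-day mouse (0.103% and 0.930%).

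At 1.5-fold, 1 gene was higher (Mmp2) and 1 lower (Timp4) for age, each 3.03%, against 3.70% and 4.92% of all genes. After the correction for position both lay within 1.5-fold, at 0.13 and -0.56, while Adamts10 (-0.593) and Col5a3 (-0.635) passed it downwards. For the restricted against the 174-day mouse 8 were higher and 3 lower, 24.2% and 9.09%, against 11.5% and 17.0%. The 8 were Adamts10, Adamts17, Fbln2, Itga3, Itga5, Lamb1, Timp3 and Timp4, and the 3 were Col22a1, Col6a5 and Mmp2. After the correction Fbln2 (0.41), Lamb1 (0.21), Timp3 (-0.01), Timp4 (0.52), Col6a5 (-0.17) and Mmp2 (-0.25) lay within 1.5-fold. Adamts19 (0.62) then passed it upwards. For the restricted against the 17-day mouse 4 were higher (Adamts10, Adamts17, Itga3 and Lamb1) and 1 lower (Col22a1), 12.1% and 3.03%, against 5.49% and 9.91%. After the correction Adamts10 (0.42), Adamts17 (0.45) and Lamb1 (0.48) lay within 1.5-fold, while Adamts4 (0.60) and Itga5 (0.61) passed it upwards. The share of all genes past 1.5-fold after the correction was not computed. Above 0 lay 13, 20 and 21 of the 33 genes in the 3 comparisons, 39.4%, 60.6% and 63.6%, against 46.3%, 47.2% and 41.1% of all genes. With arrays centred on their medians these numbers were 25, 14 and 16 of 33, or 75.8%, 42.4% and 48.5%, against 68.6%, 32.7% and 35.8% of all genes, which that scaling moved too. The share in both restricted comparisons was thus above that of all genes with either scaling, while for age it was below it as measured and above it with centring. The genes differed by more than the spread between spots, pooled over all genes, in 4, 11 and 8 of 33 cases in the 3 comparisons. These were 12.1%, 33.3% and 24.2%, against 17.3%, 28.9% and 34.1% of all genes. The 3 comparisons share mice, so an unusual value in 1 mouse appears in 2 of them. The median over the 33 genes was -0.09 for age (-0.03 over all genes), 0.18 for the restricted minus the 174-day mouse (-0.04) and 0.07 for the restricted minus the 17-day mouse (-0.09).

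**Figure D1:**
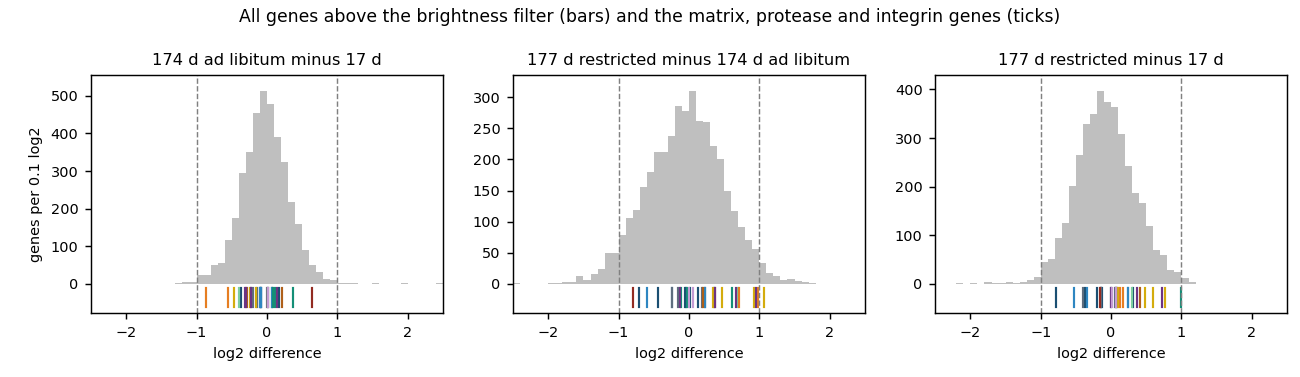
Number of genes per 0.1 log2 (vertical axis) at each log2 difference (horizontal axis) for all 3865 genes above the brightness filter (grey bars) in the 3 comparisons, with the 33 matrix, protease and integrin genes as coloured ticks below, coloured by role as in the plot of gene differences. Dashed lines mark 2-fold, and 1 of the 33 ticks, Adamts17 in the middle panel, lies beyond them. Genes beyond 2.5 log2 lie outside the drawn range.

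Scaling and spot position set how far a direction can be read. With each array centred on its median in place of quantile normalization, the median of all genes itself moved to 0.21, -0.30 and -0.16 in the 3 comparisons, so centred values are read against those. A correction for spot position, which removes the median deviation of array blocks and places, also changed many differences. Blocks and places were taken from the order of the spots in the data, as no array coordinates were used. Each value is given below as measured and, where it matters, after this correction. The part of brightness and of spot position in any single difference was not tested.

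The genes of the main fibrillar collagens, types I and III, stood close together in the 3 mice. Col1a1, the alpha 1 chain of type I collagen, had levels of 8.69 in the 17-day, 8.32 in the 174-day and 8.55 in the restricted mouse, and raw intensities of 809.99, 100.73 and 587.37. Col1a2, the alpha 2 chain of the same molecule, had levels of 9.66, 9.57 and 9.53 in that order. As measured, both chains were thus highest at 17 days and within 0.37 log2 over the mice. For age Col1a1 lay at -0.37 and Col1a2 at -0.09, or -0.15 and 0.01 after the correction for position. With median centring Col1a2 lay at 0.20 for age, so its order over the mice depended on the processing. A dimmer Col1a2 spot, which did not pass, differed by 0.05 for age and by -0.52 for the restricted minus the 174-day mouse.

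Col3a1, the chain of type III collagen, was read from 4 spots of array B. For the restricted minus the 17-day mouse they lay from -0.18 to -0.12, with a median of -0.15 and an SD of 0.02 between spots. For age the same spots ran from -0.40 to 0.29 (SD 0.35) and for the restricted minus the 174-day mouse from -0.44 to 0.26 (SD 0.37), 2 above 0 and 2 below in both. The gene values of -0.10 and -0.06 are smaller than this spread. After the correction for position the spots ran from -0.23 to 0.13 for the restricted minus the 17-day mouse (SD 0.15), with 1 of 4 above 0, so their closeness there did not outlast the correction.

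Type V collagen, which regulates the width of type I fibres, was read from single spots of Col5a2 and Col5a3. Col5a2 had levels of 10.76, 10.83 and 10.39, and its difference of -0.44 between the restricted and the 174-day mouse turned to 0.24 after the correction for position. Col5a3 had levels of 9.79, 9.57 and 9.58. Col2a1, the collagen of cartilage, had levels of 7.91, 8.09 and 8.22. The widest gap among fibre-associated collagens was that of Col22a1, a collagen of tissue junctions, with levels of 10.89, 10.81 and 10.10. The restricted mouse differed by -0.79 from the 17-day and by -0.71 from the 174-day mouse, and after the correction for position by -0.76 from the 17-day mouse, and the difference from the 174-day mouse was just past the 2-fold bound. In 13 of 13 other settings in which arrays were scaled the restricted mouse lay below the 17-day mouse for Col22a1, from -0.81 to -0.67. Most of these settings read its 1 spot with the same scaling and so are no separate checks.

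Among the 7 fibre collagens that passed, 6 lay below 0 in the restricted minus the 17-day mouse, with a median of -0.15, or -0.04 after the correction for position, where 5 lay below 0. Across all genes 41.1% lay above 0 in that comparison. Their medians were -0.09 for age and -0.04 for the restricted minus the 174-day mouse, and the age median was 0.20 with arrays centred on their medians.

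Collagens of basement membranes and other networks gave both signs. Col4a1, a chain of type IV collagen, was read from 2 spots with levels of 10.51, 10.20 and 10.24 in one and 10.66, 10.78 and 10.25 in the other. For the restricted minus the 17-day mouse they lay at -0.27 and -0.41, whereas for age they had opposite signs, -0.31 and 0.12, but -0.03 and -0.10 after the correction for position. Col18a1, a basement membrane collagen that hepatocytes make and from which endostatin is cut, was read from 3 spots, at 0.22, 0.24 and 0.42 for the restricted minus the 17-day mouse and at 0.30, 0.36 and 0.35 for the restricted minus the 174-day mouse. As measured all 3 Col18a1 spots were highest in the restricted mouse, but after the correction for position 1 of them lay at -0.25 for the restricted minus the 174-day mouse, and the gene lay at -0.59 there with median centring, where the median of all genes lay at -0.30. Col6a1, a chain of the beaded filaments of type VI collagen, had levels of 8.20, 8.21 and 8.44, and Col6a5, of the same type, 8.05, 8.12 and 7.53. The Col6a5 difference of -0.60 between the restricted and the 174-day mouse shrank to -0.17 after the correction for position.

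The laminin genes Lama5, Lamb1 and Lamc1 encode an alpha, a beta and a gamma chain, one of each making a laminin. Lamc1 differed by at most 0.18 between any 2 mice on its passing spots, which had levels of 9.61, 9.71 and 9.55 and of 9.76, 9.85 and 9.95, and a dimmer spot on array A lay at 0.47 for the restricted minus the 174-day mouse. The Lama5 spots had levels of 8.29, 8.59 and 8.22 and of 11.31, 11.23 and 11.38, and the 174-day mouse was the high one on the first and the low one on the second as measured. After the correction for position this did not hold, as the restricted minus the 174-day mouse was 0.35 on the first spot and -0.22 on the second. The widest laminin difference was that of Lamb1, whose passing spot, on array A, had levels of 7.87, 8.24 and 8.86 and raw intensities of 494.03, 65.77 and 1023.36. The difference of 0.99 between the restricted and the 17-day mouse was the value just under the 2-fold bound, and it was 1.01 with median centring and 0.48 after the correction for position. Of the 3 dimmer Lamb1 spots, that on array A lay at 0.84 and those on array B at -0.18 and -0.19, or 0.25, -0.25 and 0.11 after the correction, and with all 4 as measured the gene lay at 0.33.

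Fbln2, a fibulin that binds elastic fibres and basement membranes, had levels of 9.41, 9.01 and 9.71, so the 174-day mouse was lowest. Its difference of 0.70 between the restricted and the 174-day mouse was 0.41 after the correction for position. Fn1, the fibronectin gene, had levels of 11.19, 11.19 and 11.04. Serpinh1 had levels of 9.56, 9.41 and 9.17. Its value of -0.39 for the restricted minus the 17-day mouse was close to the spread of 0.40 between spots of a gene over all genes. The sign was the same in 13 of 13 other settings in which arrays were scaled, from -0.44 to -0.34. Most of these settings read its 1 spot with the same scaling and so are no separate checks. Sparc, a collagen-binding glycoprotein, was read from 3 spots, at -0.43, -0.20 and 0.06 for age. For the restricted minus the 174-day mouse they lay at 0.06, 0.18 and 0.26, but ran from -0.21 to 0.30 after the correction for position. A dimmer Sparc spot lay at -0.37 and 0.24 in these comparisons as measured. Together the 18 structural genes had a median of -0.08 for age, -0.03 for the restricted minus the 174-day mouse and -0.14 for the restricted minus the 17-day mouse. Above 0 lay 7, 8 and 7 genes (38.9%, 44.4% and 38.9%, against 46.3%, 47.2% and 41.1% of all genes). After the correction for position the medians were -0.03, 0.04 and -0.04. Then 7, 10 and 7 lay above 0 (38.9%, 55.6% and 38.9%, against 45.7%, 50.7% and 46.6% of all genes). With median centring the medians were 0.21, -0.43 and -0.19, with 16, 5 and 5 genes above 0. These were 88.9%, 27.8% and 27.8%, against 68.6%, 32.7% and 35.8% of all genes.

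**Figure D2:**
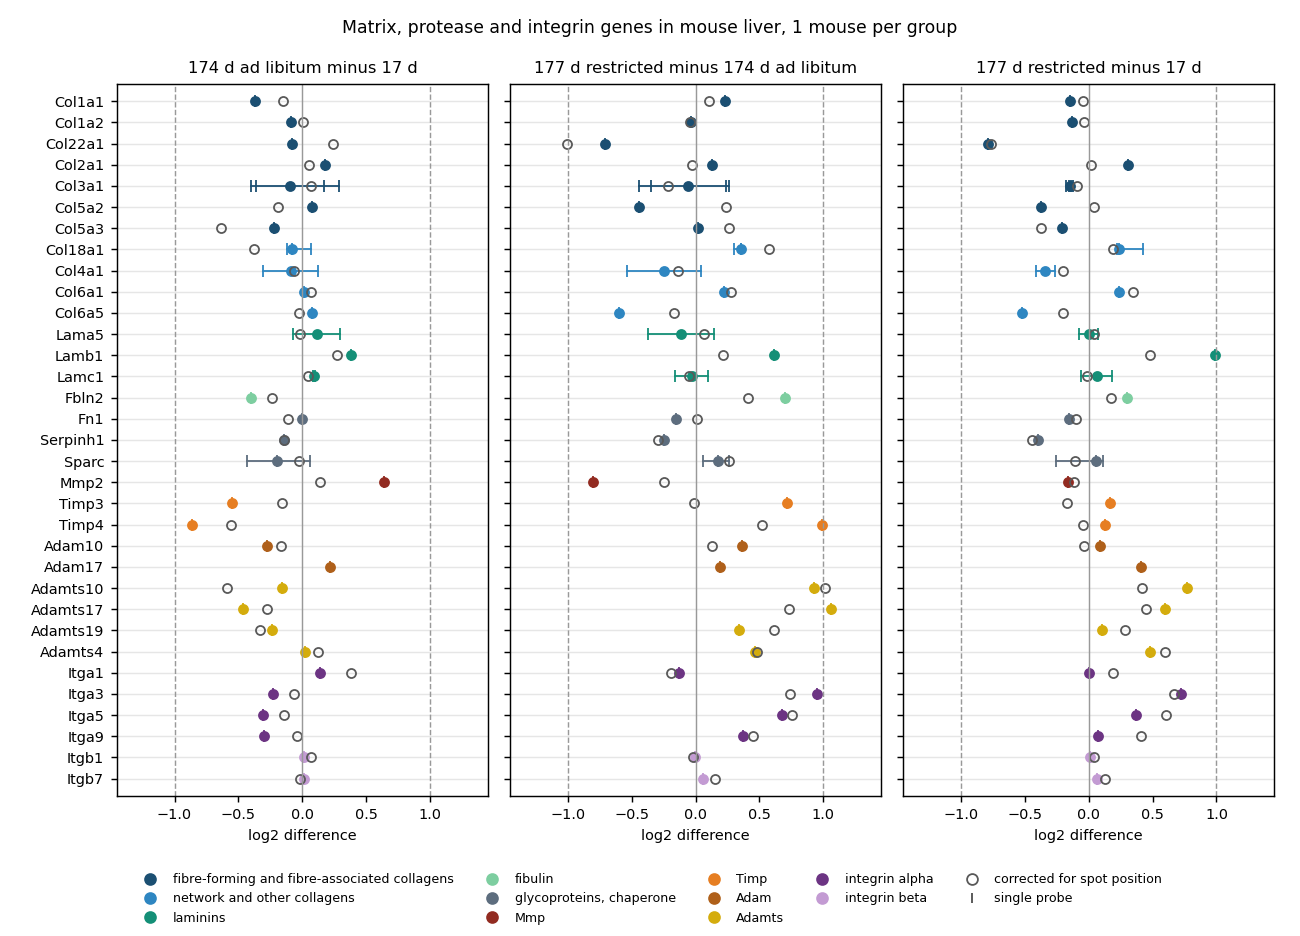
Log2 difference (horizontal axis) of each of the 33 genes in the 3 comparisons, 1 mouse per group. Filled circles are the values as measured, coloured by role, open circles the values after a correction for spot position, ticks the single spots of a gene joined by a line, and dashed lines mark 2-fold. The filled circles of all 4 Adamts genes lie right of 0 in the middle and right panels, and Adamts17 is the filled circle beyond a dashed line.

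Proteases and their inhibitors mostly lay above 0 where the restricted mouse was compared. In the restricted minus the 174-day mouse, 8 of 9 lay above 0 with a median of 0.47, and in the restricted minus the 17-day mouse again 8 of 9 did, with a median of 0.17. Of all genes 47.2% and 41.1% lay above 0 in these comparisons. After the correction for position 6 of the 8 that still passed lay above 0 in the first, with a median of 0.50, and 4 of 8 in the second, against 50.7% and 46.6% of all genes. With median centring 6 of 9 lay above 0 in both, against 32.7% and 35.8% of all genes.

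Adamts17, a secreted protease of the Adamts family, had levels of 8.46 in the 17-day, 7.99 in the 174-day and 9.05 in the restricted mouse. Its raw intensities were 699.73, 78.40 and 828.60. The restricted mouse lay 1.06 log2 above the 174-day mouse, a fold of 2.08, and 0.59 above the 17-day mouse. The value was 0.73 after the correction for position and 0.95 with median centring, both under 2-fold. Other spots named for Adamts17 were dimmer and lay at -0.27 and -0.71 for the restricted minus the 174-day mouse, so that over its 3 spots the gene lay at -0.27. After the correction the dimmer spots lay at 0.29 and -0.82. The single call among the 33 genes thus rested on 1 spot, and neither dimmer spot passed the 2-fold bound upwards.

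Adamts10, a protease that binds fibrillin microfibrils, had levels of 7.89, 7.73 and 8.66, with the restricted mouse highest. Its differences were 0.93 from the 174-day and 0.77 from the 17-day mouse, 1.01 and 0.42 after the correction for position, while a dimmer spot lay at -0.17 and -0.27 as measured and at 0.38 and 0.21 after it. Adamts4, an aggrecanase, had levels of 7.58, 7.59 and 8.06, and Adamts19 had levels of 10.96, 10.72 and 11.06. All 4 Adamts genes that passed lay above 0 in the restricted minus the 174-day mouse, with a median of 0.70, and in the restricted minus the 17-day mouse, with a median of 0.54. After the correction for position both held for 4 of 4 genes, with medians of 0.67 and 0.43, but with median centring Adamts19 lay at -0.57 and -0.30. With all their spots, dim ones too, the medians were 0.36 and 0.18.

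The sheddases lay within 1.5-fold in the 3 comparisons as measured. Adam10, which releases the ectodomains of Notch and other receptors, had levels of 12.05, 11.78 and 12.14. Its difference of 0.36 between the restricted and the 174-day mouse was 0.13 after the correction for position. With median centring it was -0.61, where the median of all genes lay at -0.30. Adam17, which releases tumour necrosis factor, differed by 0.21 for age and by 0.41 for the restricted minus the 17-day mouse on a spot just above the brightness filter, at percentile 50.1 of its array, and its dimmer spots lay at 0.00 and -0.31 for the restricted minus the 17-day mouse. The passing Adam17 spot lost its place above the filter after the correction for position.

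As measured, Mmp2 and the Timp genes that passed had opposite signs in the comparisons with the 174-day mouse. Mmp2, the gelatinase that stellate cells secrete, had levels of 9.92, 10.56 and 9.76, so the 174-day mouse was highest. It lay 0.64 above the 17-day mouse, and the restricted mouse lay 0.80 below it. These values were 0.13 and -0.25 after the correction for position and 1.13 and -1.39 with median centring. Timp3, an inhibitor held in the matrix, had levels of 8.84, 8.29 and 9.01, and Timp4 had 8.37, 7.51 and 8.49, the 174-day mouse being lowest in both. For age Timp4 lay at -0.86, the lowest of the 33 genes, and at -0.56 after the correction for position. In the restricted minus the 174-day mouse Timp4 lay at 0.99, just under 2-fold, and Timp3 at 0.72, and these were 0.52 and -0.01 after the correction. Timp3 thus had the sign of Mmp2 there after the correction. A dimmer Timp3 spot lay at -0.02 for age and at 0.26 for the restricted minus the 174-day mouse. Over all its spots Timp3 lay at -0.29 and 0.49. Set against the 17-day mouse, the restricted mouse had Mmp2 at -0.16, Timp3 at 0.17 and Timp4 at 0.13. Each was within the spread of 0.40 between spots of a gene over all genes.

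**Figure D3:**
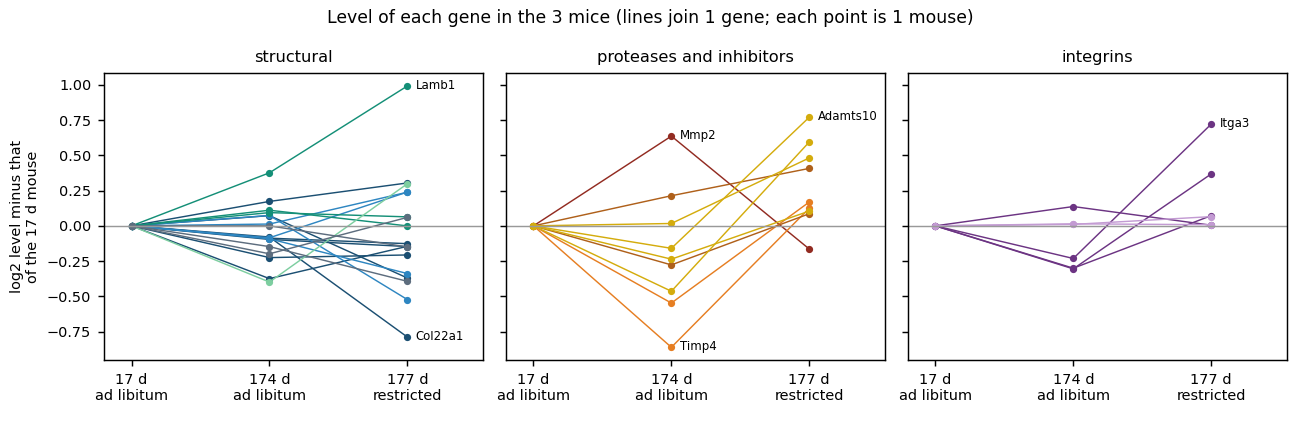
Level of each of the 33 genes in the 3 mice, as the log2 difference from the 17-day mouse (vertical axis), for 18 structural genes, 9 proteases and inhibitors and 6 integrins. Each line is 1 gene and each point 1 mouse, with colours by role as in the plot of gene differences; genes more than 0.6 log2 from the 17-day mouse are named. Mmp2 peaks and Timp4 dips in the 174-day mouse, while Lamb1, Adamts10 and Itga3 are high and Col22a1 low in the restricted mouse.

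Integrin alpha chains were highest in the restricted mouse for 3 of the 4 genes that passed. Itga3, which pairs with Itgb1 into a laminin receptor, had levels of 9.60, 9.36 and 10.32. The restricted mouse lay 0.95 above the 174-day and 0.72 above the 17-day mouse, and 0.74 and 0.67 above after the correction for position. Itga5, the alpha chain of the classical fibronectin receptor, had levels of 9.37, 9.07 and 9.74, with 0.67 and 0.37 in the same comparisons, or 0.75 and 0.61 after the correction. Itga3, Itga5 and Itga9 kept their signs for the restricted minus the 174-day mouse in 12 of 12 other settings in which arrays were scaled. The values ran from 0.48 to 0.95, 0.50 to 0.75 and 0.27 to 0.45. Most of these settings read the same spot with the same scaling and so are no separate checks. Median centring, loess and the correction for position were the ones that could move these values by much. Each of these genes rested on 1 spot, so no second spot of the same gene bears on it.

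Itga9 had levels of 9.04, 8.74 and 9.11, and Itga1, of a collagen receptor, 7.60, 7.73 and 7.60. The passing spots of the beta chains differed by at most 0.07 log2 between mice. Itgb1, the common partner of these alpha chains, had levels of 9.47, 9.48 and 9.47, so its 3 mice lay within 0.01 log2, and a dimmer spot lay at 0.41 for the restricted minus the 174-day mouse. Itgb7, of lymphocyte homing receptors, had levels of 9.57, 9.58 and 9.64. The 4 alpha genes had a median of 0.52 for the restricted minus the 174-day mouse and 0.22 for the restricted minus the 17-day mouse, against 0.02 and 0.04 for the 2 beta genes. With median centring the alpha medians were 0.37 and 0.30 and the beta medians -0.27 and 0.05, so the beta chains lay near the median of all genes in the first of these.

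**Figure D4:**
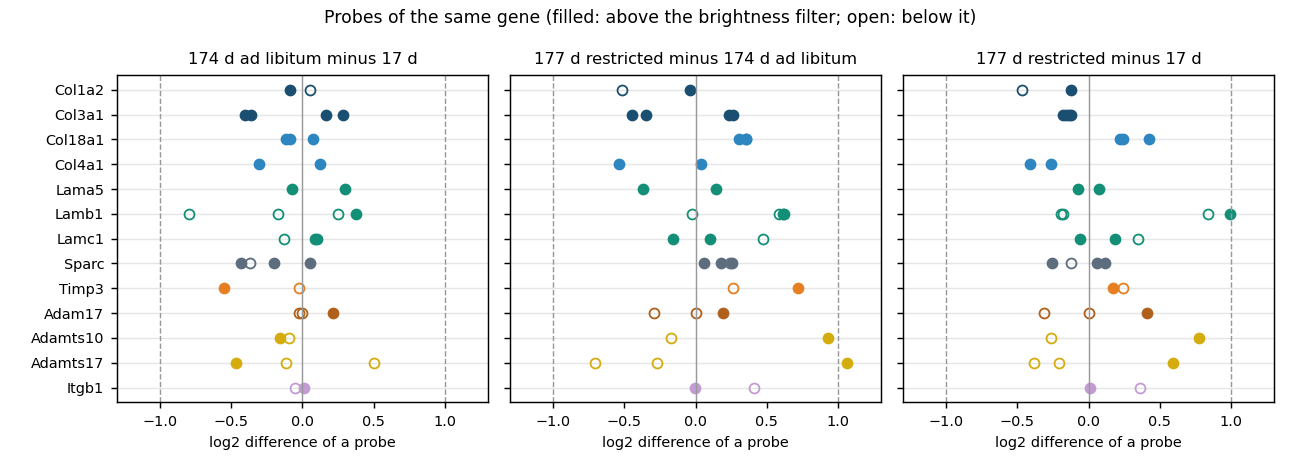
Log2 difference as measured, with no correction for position (horizontal axis), of every spot of the 13 genes that passed the brightness filter and had more than 1 spot named for them, in the 3 comparisons. Filled circles passed the filter and open circles did not; dashed lines mark 2-fold. The 4 Col3a1 spots lie between -0.18 and -0.12 in the right panel but on both sides of 0 in the others, and the open circles of Adamts17 lie left of 0 in the middle panel while its filled circle lies beyond 1.

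Of the 60 genes, 27 had no spot above the brightness filter, and their values are given as a description only. They were Col12a1, Col14a1, Col4a2, Col4a5, Col5a1, Col6a2, Col6a4, Col8a2, Col9a3, Lama1, Lama3, Loxl2, Loxl3, Dcn, Mmp7, Mmp11, Mmp23, Timp2, Adam8, Adam9, Adam19, Adamts1, Adamts12, Adamtsl1, Itga8, Itgb4 and Itgb5. Spots of Adam17, Col12a1, Col5a1, Itga8, Loxl3 and Timp2, 6 in all, lay at the floor in all 3 mice, where differences of 0 carry no information. Decorin (Dcn), a collagen-binding proteoglycan, had 2 dim spots at 0.67 and -0.94 for the restricted minus the 174-day mouse. At least 2-fold apart without the filter were Adamtsl1 (-1.04 for age and 1.35 for the restricted minus the 174-day mouse), Lama1 (1.27) and Adam8 (-1.44) in the latter comparison. In the restricted minus the 17-day mouse the 27 genes ran from -0.96 for Adam9 to 0.74 for Mmp11, whose spot lay at the floor in 2 mice.

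Genes that work around the matrix were read from 4 further lists. Of 16 genes of collagen processing and secretion, 6 passed the filter. In the restricted minus the 174-day mouse 1 of these passed the 2-fold bound upwards and 0 downwards, against 2.25% and 4.61% of all genes. This was Mia3, a receptor that loads collagen into transport carriers, at 1.05 (0.34 after the correction for position). P4ha1, a subunit of the prolyl hydroxylase that stabilises the collagen helix, lay at 0.65 and Pcolce, an enhancer of procollagen cleavage, at -0.70. Of 23 other basement membrane and matrix genes 8 passed, with a median of -0.44 in that comparison. Of these 7 lay below 0 and 1 was at least 2-fold lower. Among all genes 47.2% lay above 0 and 4.61% were at least 2-fold lower there. After the correction for position the median was 0.00 and 4 of 8 lay below 0. Past 2-fold as measured was Nid1, the nidogen that links laminin to type IV collagen, at -1.10 (-0.56 after the correction), while its relative Nid2 lay at -0.64 (-0.67) and the perlecan gene Hspg2 at -0.62 (0.07). In the restricted minus the 17-day mouse all 8 lay below 0, from -0.53 to -0.11, and 6 of 8 after the correction. Of all genes 41.1% lay above 0 in that comparison, or 46.6% after the correction.

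Of 19 focal adhesion genes 5 passed the filter. Among these, 1 lay at least 2-fold lower in the restricted than in the 174-day mouse, as did 4.61% of all genes. This was Fermt2, a kindlin that activates integrins, at -1.42 (-0.74 after the correction for position). Vcl, the vinculin gene, lay at 0.37 there. Of 15 genes of TGF-beta signalling, the main inducer of collagen in stellate cells, 2 passed, Tgfb2 at -0.39 and Smad3 at -0.27. For age, and between the restricted and the 17-day mouse, 0 genes of these 4 lists passed the 2-fold bound. Of all genes 0.724% and 0.466% passed it upwards and 0.440% and 1.11% downwards in these comparisons.

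Markers of the cells that make or carry these genes were few above the filter. Of the 7 hepatocyte markers sought, 4 were named on the arrays and all 4 (Alb, Apoa1, Ttr and Serpina1e) passed, with a summed normalized intensity of 23573.1, 20493.2 and 32722.2 in the 17-day, 174-day and restricted mouse. Alb lay at 1.18 for the restricted minus the 174-day mouse (0.55 after the correction for position) and Serpina1e at -0.46 (-0.40). Of 10 stellate cell markers 3 were named and 1 passed, Pdgfrb, at 466.9, 415.7 and 524.1. Pecam1 passed for endothelium (1097.2, 903.0 and 818.1) and C1qb for macrophages (792.5, 707.5 and 673.1), out of 3 and 2 named. Krt7 and Epcam passed for bile duct (530.6, 584.7 and 436.2 summed), and Hba-a1 and Hba-a2 for erythroid cells (1034.7, 1040.7 and 1104.1). These sums hide opposite signs. For the restricted minus the 174-day mouse Krt7 lay at 0.07 and Epcam at -0.72, or 0.16 and -0.86 after the correction for position. Hba-a1 lay at -0.16 and Hba-a2 at 0.15 there, or -0.17 and -0.28 after it. No spot of these markers was at 0. No marker of other leukocytes or platelets passed. Their part in the differences above was not tested.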

How the data were processed

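Liver RNA of 3 mice was measured on 6 arrays of 2 kinds. How the authors made the deposited intensities, background removal included, is not given in the sources used here. From their range they were taken as linear brightness per spot. Spots were named through the platform annotation, and of 9663 spots with 1 symbol 9641 matched a RefSeq gene number, with 0 symbols changed. The number of value columns with no assigned mouse was 0.

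Values under an array's 5th percentile were set to it, and log2 values were quantile-normalized among the 3 arrays of a kind. Spots with a mean above the 50th percentile entered, and a gene's difference was the median over its spots. A log2 difference of at least 1 was called 2-fold. The genes, lists and settings were chosen with earlier results of these data known. The rule for named genes took those past 2-fold, the extremes of each role in each comparison, those with at least 2 entering spots and a fixed list of matrix genes. The other genes are named so that each of the 60 is accounted for.

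Alternatives were median centring, no scaling, loess (span 0.3), no filter or the top 25% of spots, a 25th percentile floor, a gene's brightest spot, a 1.5-fold bound, each array kind alone, leaving out spots of exactly 10 or at least 1.5 log2 apart in 1 mouse only, and a correction for position in 16 blocks of 528 consecutive spots. Normalizing the 17-day and restricted arrays without the 174-day arrays was chosen after seeing the data. The procedure was tested on simulated data. Tables were computed in pandas 2.3.3 and numpy 2.4.6 under Python 3.11.15, loess came from statsmodels 0.14.6, and matplotlib 3.10.9 drew the figures.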

Additional observations from a re-analysis of the deposited data

How the results depend on the processing

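The count of genes at least 2-fold apart was 0 for age, 1 for the restricted against the 174-day mouse and 0 for the restricted against the 17-day mouse. With median centring these counts were 1 (Mmp2), 4 (Col22a1, Col5a2, Fn1 and Mmp2, all lower) and 1 (Lamb1), where 1.94%, 17.1% and 1.06% of all genes passed; of all genes 15.8% were 2-fold lower in the second, against 12.1% of these. Without scaling they were 33, 33 and 1, against 99.8%, 99.1% and 3.57% of all genes, since the 174-day arrays are dim. Without the brightness filter they were 1, 3 and 0 of 60 genes, where 3.22%, 7.44% and 1.13% of all genes passed. With the 1.5-fold bound they were 2, 11 and 5. The count for the restricted against the 174-day mouse was 0 among the top 25% of spots and on array A alone, where the Adamts17 spot does not enter, and 2 (Adamts10 and Col22a1) after the correction for position. Adamts17 lay at -0.27 without the filter. Counts were the same with loess, the floor at the 25th percentile, the brightest spot, array B alone, without spots of exactly 10 and without spots apart in 1 mouse only; among the 88 spots 0 stood apart in that way. Without the 174-day arrays in the normalization, the restricted against the 17-day count was 0. No paired analysis was possible because each group has 1 mouse, and no replicate could be left out. Low signal of the 174-day arrays limits every difference that includes them.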

Other observations

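Among these genes 4 pairs are direct neighbours among protein-coding genes of the mouse genome, in the order of RefSeq for GRCm38.p6, here with all their spots whatever their brightness. Col6a5 and Col6a4, side by side on chromosome 9, lay at -0.60 and -0.73 for the restricted minus the 174-day mouse and at -0.52 and -0.65 for the restricted minus the 17-day mouse. After the correction for spot position Col6a5 lay at -0.17 and -0.20 in these comparisons, and the 2 spots of Col6a4 at -0.56 and -0.76 in the first and at -0.82 and -0.37 in the second. Col3a1 and Col5a2, on chromosome 1, lay at -0.15 and -0.37 for the restricted minus the 17-day mouse, and at -0.09 and 0.04 after the correction. Col6a1 and Col6a2, on chromosome 10, encode chains of 1 molecule and had opposite signs there, at 0.24 and -0.38, or 0.35 and -0.13 after the correction. Col4a1 and Col4a2, on chromosome 8, which are transcribed away from each other, lay at -0.34 and 0.21, or -0.20 and 0.21 after it. Col6a2, Col6a4 and Col4a2 were read from spots below the brightness filter.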
